A study of Homo sapiens with 2 samples.

Results

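The small ribosomal subunit protein genes described here are 28 genes of the cytosolic ribosome, chosen by exact gene symbol with no pseudogene included: RPSA, RPS2, RPS3, RPS3A, RPS4X, RPS6, RPS7, RPS9, RPS10, RPS12, RPS13, RPS14, RPS15, RPS15A, RPS16, RPS18, RPS19, RPS20, RPS21, RPS23, RPS24, RPS25, RPS26, RPS27, RPS27A, RPS28, RPS29 and FAU. They are 28 of the 16645 annotated genes with a read, and their reads were assigned to 2443 transcript models. RNA came from GM12878, a B-lymphoblastoid line transformed by Epstein-Barr virus. It was sequenced as native RNA on nanopores, a method that reads each strand from its 3′ end, in 2 replicate libraries that form 1 group. The labels name no treatment, genotype or batch and do not say whether the replicates were separate cultures, so the p-values below compare the reads of 2 libraries, not conditions, and the spread may be technical.

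Each of these genes encodes 1 protein of the subunit that binds the mRNA, finds the start codon and pairs codons with transfer RNA. The proteins are needed in equal amounts and are built into the particle in the nucleolus, nucleus and cytoplasm with the help of assembly factors. Their mRNAs belong to the terminal oligopyrimidine (TOP) class, which begins with a run of C and T and whose translation is controlled by growth signals through mTOR and LARP1. Proliferating B-lymphoblastoid cells make ribosomes at a high rate.

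The start of the mRNA is shown first, because many of the read models described below lack part of the 5′ end. The windows are from RefSeq on GRCh38.p14 and run from 30 bases before the annotated start to 30 bases from it on, 5′ to 3′ on the strand of the gene. Capitals mark the longest run of C and T in the window. RPS24, RPS3 and RPS18 are shown for their long runs, RPS3A for a run just under the length counted below, and RPS4X for a short one.
RPS24 (chr10:78033833-78033892, + strand): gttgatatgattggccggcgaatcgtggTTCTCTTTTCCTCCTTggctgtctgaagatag
RPS3 (chr11:75399488-75399547, + strand): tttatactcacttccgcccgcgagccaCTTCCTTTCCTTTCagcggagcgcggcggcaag
RPS18 (chr6:33272045-33272104, + strand): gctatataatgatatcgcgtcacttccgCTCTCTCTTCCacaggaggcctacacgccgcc
RPS3A (chr4:151099598-151099657, + strand): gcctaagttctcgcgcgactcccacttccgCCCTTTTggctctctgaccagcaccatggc
RPS4X (chrX:72277219-72277278, - strand): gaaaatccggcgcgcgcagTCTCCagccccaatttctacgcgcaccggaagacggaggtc

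The runs were 16 bases in RPS24, 14 in RPS3, 11 in RPS18, 7 in RPS3A and 5 in RPS4X. A run of at least 8 bases of C or T, on the strand of the gene only, was found in 23 of the 25 members with an entry (92.0%). The same run was found in 27.9% of all 27305 genes in the table. RPS3A and RPS4X were the members with an entry that lacked it. The run was counted anywhere in the window and need not lie at the start. Relative to the annotated start, it began at position -22 in RPS29, before the mRNA, and at position 8 in RPS15. The minimum of 8 was chosen after values had been seen, and a match is a description of the letters in the window.

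Replicate 1 held 1360368 reads and replicate 2 held 1510998, so that 3 reads, the limit that a count of 0 allows, equalled 2.21 and 1.99 CPM (the usual unit, in which a gene is set against the reads of its whole library). In a check of the cell type, 6 B cell genes summed to 1322 and 1355 CPM. All 3 erythroid genes and 3 of 4 T cell genes were at 0 in both libraries, the remaining T cell gene, CD3E, having 5 and 16 reads. Intervals and limits cover counting error only.

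The 28 genes took 121516 reads in replicate 1, or 8.93% of the library (Wilson 95% interval 8.89 to 8.98%), and 144568 in replicate 2, or 9.57% (9.52 to 9.62%). A direct RNA read is 1 RNA strand, so levels are in CPM without division by length unless stated. Among all annotated genes, 24 of the 28 were within the first 100 by mean CPM while RPS28 was at rank 352 and RPS26 at rank 3428. The first 26 members lay within 6.42-fold of each other, while the whole set spanned 212-fold because of RPS28 and RPS26. Reads counted for pseudogene copies are not included in these levels. Such copies held 89.2% and 85.5% of the reads of RPS28 and its copy together, and 78.7% and 78.0% for RPS26. The levels and ranks of both are therefore uncertain.

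At the mRNA entry and decoding sites, RPS2, a protein of the entry channel, had the highest level of the family, with 7843 CPM in replicate 1 and 9355 in replicate 2. RPS3, which lines the same channel, had 4448 and 4759 CPM. RPS23, a protein of the decoding centre, had 3568 and 3557 CPM. These 3 genes differ by more than the libraries do. FAU, whose product is a ribosomal protein made as a fusion with a ubiquitin-like protein, was the lowest of the group with 1302 and 1377 CPM, and RPS9 and RPS15 lay between, at means of 2447 and 2089 CPM.

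On the platform and around the mRNA exit, RPS3A had the highest level, with 4880 and 5485 CPM. RPSA, also known as the laminin receptor precursor, had 3698 and 4155 CPM, and RPS14, the gene tied to anaemia in the 5q deletion syndrome, had 3730 and 4058 CPM. RPS14 was the higher of these in replicate 1 and RPSA in replicate 2, so their order is not resolved. RPS21, RPS13 and RPS7 had means of 2224, 2191 and 1961 CPM, and RPS27, a zinc finger protein, had 1427. RPS26, which contacts the mRNA upstream of the start codon, stood far below, with 51 and 66 reads, or 37.5 and 43.7 CPM.

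Of the proteins of the head, RPS18 was highest, with 6906 and 6662 CPM. RPS19, the gene most often mutated in Diamond-Blackfan anaemia, had 4416 and 4491 CPM. RPS16 and RPS12 had means of 3725 and 3617 CPM, and their ranges overlapped. RPS20 and RPS10, both sites of ubiquitin marks on collided ribosomes, had means of 3178 and 2743 CPM. RPS29, RPS27A, which is made as a fusion with ubiquitin, and RPS25 had means of 3111, 2874 and 2151 CPM. RPS28, counted without its pseudogene copy, was the lowest of the head genes, with 369 and 648 reads, or 271.3 and 428.9 CPM. The copy had 3059 and 3821 reads.

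In the body of the subunit, RPS6, the target of the ribosomal protein kinases downstream of mTOR, had 5302 and 5766 CPM. RPS4X had 4889 and 5089 CPM. RPS15A and RPS24 had means of 2879 and 2625 CPM. Along the whole order, 14 of the 27 neighbouring pairs had overlapping ranges. An overlap does not tell whether a pair kept its order within each library. RPS6 was above RPS3A in both libraries (5302 against 4880 and 5766 against 5485 CPM), while RPSA and RPS14 changed order. With 2 libraries, a gene's place among close neighbours remains uncertain. Per kilobase of known model length, which runs from 347.3 to 2484 bases between members, RPS18 came first, with 10490 and 10120, followed by RPS2 with 7317 and 8728 and RPS29 with 7349 and 8417, whose ranges overlap, while RPS23 moved from rank 12 to rank 26. The length is that of the annotated models, 3437 bases for RPS23-201, and not of the reads. For RPS2 it rests on 21 and 48 known reads, for RPS27A on 94 and 104, and for RPS15A on 287 and 318.

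**Figure D1:**
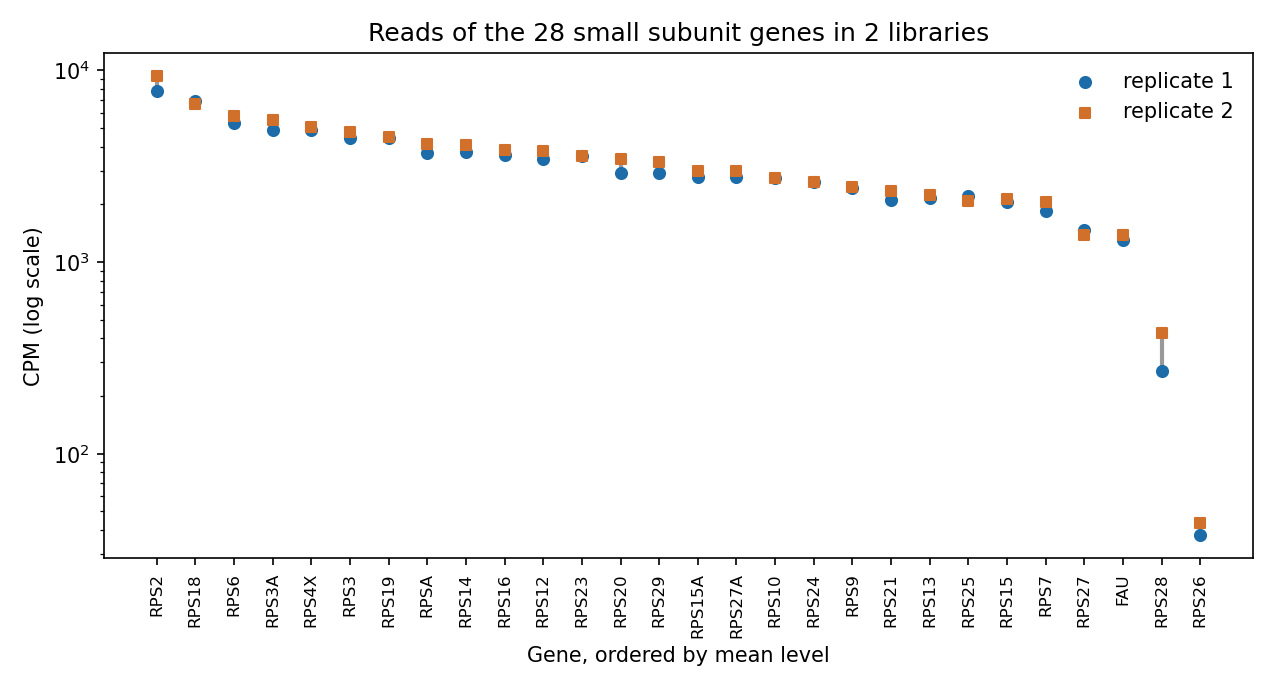
CPM of each of the 28 genes on a log axis, ordered by mean level, with a circle for replicate 1, a square for replicate 2 and a grey line between them. RPS28 and RPS26, counted without the reads of their pseudogene copies, lie below the other 26 genes, whose means run from 1339 to 8599 CPM.

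To compare the libraries, each gene's reads were tested against the library totals with a two-sided exact binomial test, with Benjamini-Hochberg adjustment over all genes with at least 10 reads. Of the 28 genes, 15 were higher in replicate 2 and 0 lower, against 2.72% and 2.33% of the 10634 genes tested, or 5.05% in either direction. Among the 3879 genes with at least 100 reads, 14.4% were called, and 15 of the members. The reads behind most members are many, which makes small differences pass: the median log2 ratio of replicate 2 over replicate 1 was 0.098 for the members and 0.010 for all genes tested, and 24 members lay above 0. By group, 2 of 6 entry and decoding genes, 5 of 8 platform and exit genes, 6 of 10 head genes and 2 of 4 body genes were higher in replicate 2.

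RPS28 had the widest called difference, a log2 ratio of 0.66 ± 0.09 (counting SE, adjusted p = 1.9e-10 by the exact binomial test). With the reads of its pseudogene copy added, the log2 ratio of RPS28 was 0.23, below those of RPS2 at 0.29, RPS20 at 0.26 and RPS3A at 0.25, so its place at the top depends on that setting. With known models only, it was 0.93, below that of RPS2 at 1.31, which then rested on 21 and 48 reads. RPS2 had a log2 ratio of 0.25 ± 0.02 (adjusted p = 1.8e-40) and RPS20 one of 0.25 ± 0.03 (adjusted p = 3.0e-14), by the same exact test. RPS29, RPS3A and RPSA followed with log2 ratios of 0.20, 0.17 and 0.17. At the other end, RPS27 had a log2 ratio of -0.09 and RPS25 one of -0.08, with adjusted p of 0.29 and 0.28 in the exact test. RPS10, RPS24 and RPS23 lay within 0.01 of 0, and their sign changed with the scaling. When only known models were counted, the median of all genes moved to -0.26 and that of the members to 0.26, 22 members were higher and 1, RPS4X, was lower, against 18.8% of the 5528 genes tested on that count.

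**Figure D2:**
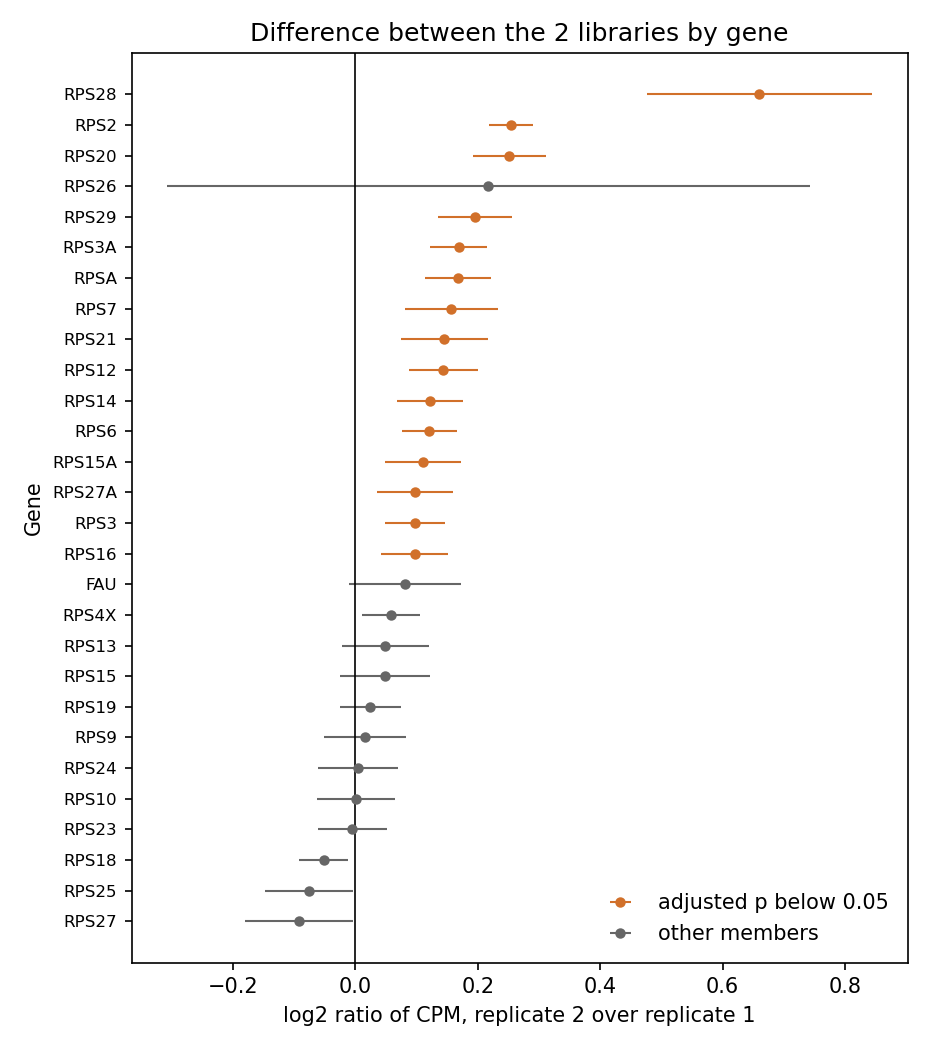
The log2 ratio of CPM, replicate 2 over replicate 1, for each gene, with a bar for the 95% counting interval and genes with an adjusted p below 0.05 in orange. The 15 called genes all lie above 0, and the wide bar of RPS26 rests on 51 and 66 reads.

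The table places each model in a category. Known models have the junctions of a transcript in the annotation, and incomplete splice matches (ISM) have only a stretch of them, while NIC models join annotated splice sites in a new way and NNC models hold an unannotated site. A genomic model overlaps the gene without its splicing. Known models took 65.1% of the members' reads in replicate 1 (64.9 to 65.4%) and 58.1% in replicate 2 (57.9 to 58.4%). ISM models took 30.6% (30.4 to 30.9%) and 37.9% (37.7 to 38.2%). NIC models took 1.67% and 1.47%, and NNC models 2.30% and 2.04%. In the other annotated genes the known share was 55.6% and 45.1%, the ISM share 23.4% and 31.7%, and the genomic share 14.5% ± 3.48 (SD, n = 2), against 0.338% ± 0.11 in the members.

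The members differed widely from each other. RPS29 had a known share of 99.2% in both libraries, and RPS27 of 98.1% and 95.4%. RPS2 had only 21 and 48 known reads of 10669 and 14135, or 0.197% (0.129 to 0.301%) and 0.340% (0.256 to 0.450%), and its ISM share was 98.0% in both. RPS27A had a known share of 2.49% and 2.32%, and RPS15A of 7.62% and 7.04%. The ISM share exceeded 50% in both libraries in 4 genes, RPS2, RPS15A, RPS27A and RPS4X. RPS2 alone held 28.1% and 25.3% of the members' ISM reads, and without it the members' known share was 71.4% and 64.4%.

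**Figure D3:**
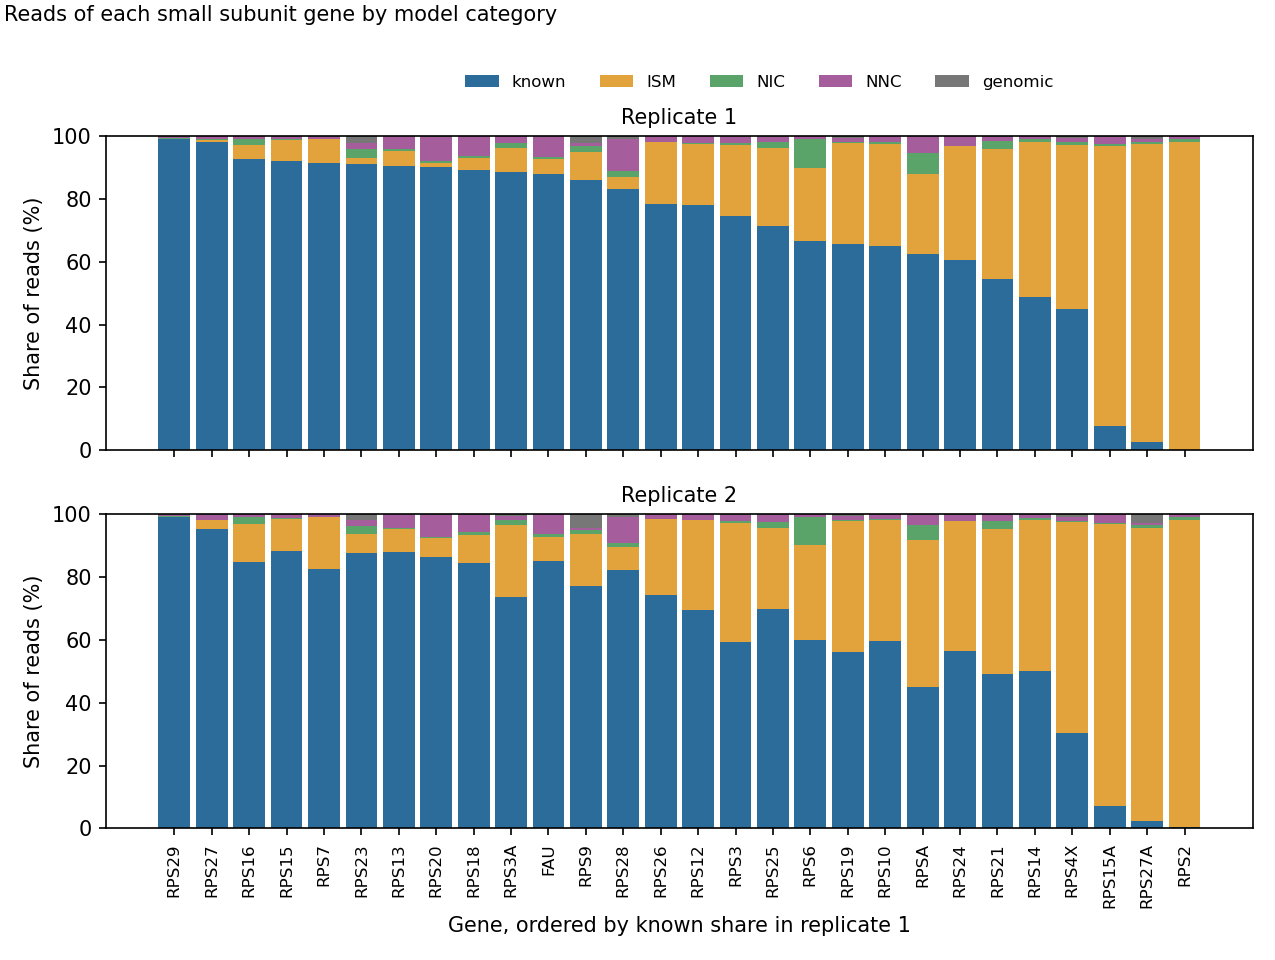
Stacked bars give the share of each gene's reads, in percent, by model category, for replicate 1 above and replicate 2 below, with genes in the same order in both. The known share runs from 99.2% in RPS29 in replicate 1 to 0.197% in RPS2, and the ISM part of most bars is larger in replicate 2.

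In each of the 5 genes named next, a single ISM model carried most of the gene's ISM reads in both libraries. Not every member was like this: in RPS6 the best supported ISM model had 819 of 1688 and 811 of 2644 ISM reads. The model with most reads, in RPS2 (chr16:1962052-1964860, - strand), had 9062 reads in replicate 1 and 10460 in replicate 2 and held 6 exons, against 7 in the reference transcript, taken as the annotated principal coding transcript with most exons. The next 4 were in RPS15A with 3291 and 3841 reads, RPS27A with 2984 and 3166, RPS4X with 2697 and 2676, and RPS14 with 2455 and 2767. Each of these 5 had exactly 1 exon fewer than its reference. They are of the suffix subtype, which keeps the 3′ end, in RPS2 and RPS27A, and of the subtype that is the suffix of one transcript and the prefix of another in RPS15A, RPS4X and RPS14.

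The first exon junction of the reference transcripts in GENCODE 29 (GRCh38) shows what a read must span at its 5′ end to hold every exon. The windows give the last 15 bases of exon 1 in capitals and the first 15 of exon 2 in lower case, 5′ to 3′ on the strand of the gene. The first 3 belong to genes with a leading ISM model, and the last 3 to genes with a high known share.
RPS4X: CCTAACGCAGCCATGgctcgtggtcccaag
RPS14: GGAGACGACGTGCAGaaatggcacctcgaa
RPS27A: GATCCGCCATCTGCGgtggagccgccacca
RPS18: TGTGCTGCAGCCATGtctctagtgatccct
RPS16: GTCTTCGGACGCAAGaagacagcgacagct
RPS3A: AGCCAAGAAGAAAGTggttgatccattttc

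The intron at this junction lies at chrX:72276235-72277192 in RPS4X, chr5:150447736-150449702 in RPS14 and chr2:55232709-55232807 in RPS27A. In RPS4X and RPS18 the first exon ends with the 3 bases of the start codon, as it does in 6 of the 28 genes. The start codon lay after the first exon in 14 genes, RPS14 and RPS27A among them. These counts hold for the reference transcripts only. The 14 include RPS29 and RPS26, whose reference starts with a rarely read upstream exon. RPS29-201 and RPS26-204, with fewer exons than the reference, held 97.65% and 97.50% of the known reads in replicate 1. Whether the position of the start codon goes with the known share was not tested.

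Over all members, ISM models with 1 exon fewer than the reference took 80.6% of the ISM reads in replicate 1 (80.2 to 81.0%) and 63.4% in replicate 2 (63.0 to 63.8%). Among all annotated genes these shares were 28.4% and 20.9%, and in the 47 large subunit genes 58.6% and 40.8%. The members' references hold only 4 to 7 exons, and the sets were not matched for exon number. The contrast is therefore not shown to be a trait of the members. Models with 2 or more exons fewer took 16.4% of the members' ISM reads in replicate 1 and 34.6% in replicate 2. The suffix subtype took 68.2% and 72.4% of the members' ISM reads, against 68.4% and 68.0% in all annotated genes. In the large subunit genes it took 75.5% and 79.3%. The pooled share of models with 1 exon fewer does not describe every member. In 5 members it was at least 80% in both libraries, while RPS3 had 25.7% and 15.7% and RPS6 26.4% and 20.7%. It counts exons and does not tell which end is missing. A model of RPS25 with 4 exons against 5, with 628 and 581 reads, is of the prefix subtype. These measures were chosen after values had been seen and were given no test.

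Whether the known share differed between the libraries was tested gene by gene with Fisher's exact test, adjusted over all genes with at least 20 reads in each library. The share was lower in replicate 2 in 19 members and higher in 0, against 26.9% and 0.268% of the 6340 genes tested. Most members are read more deeply than most genes: with at least 100 reads in each library, 20 of 27 members were called beside 61.2% of 1912 genes, and the gap to the background is smaller at that depth. The median difference was -4.11 percentage points in the members and -8.62 in all genes, whose median known share was 32.5% and 17.5%, against 78.2% and 71.9% in the members. The large subunit genes had 38 of 47 lower. By group, 4 of 6 entry and decoding genes, 6 of 8 platform and exit genes, 6 of 10 head genes and 3 of 4 body genes had a lower known share in replicate 2.

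The largest difference was in RPSA, whose known share was 62.6% (61.3 to 63.9%) in replicate 1 and 44.9% (43.7 to 46.1%) in replicate 2, with adjusted p = 2.2e-76 by Fisher's exact test. RPS3 had 74.6% and 59.3%, RPS3A had 88.6% and 73.8%, and RPS4X had 44.9% and 30.4%. In these 4 genes the difference was 14.5 to 17.7 points. The 9 genes that did not pass were RPS2, RPS14, RPS15A, RPS25, RPS26, RPS27A, RPS28, RPS29 and FAU. In RPS2, RPS27A and RPS15A the known share in replicate 1 was only 0.197%, 2.49% and 7.62%. A fall of 14.5 points or more was therefore not possible in these genes. RPS14 had 48.7% and 50.3% (adjusted p = 0.22 by Fisher's exact test), and FAU had 88.0% and 85.3% (adjusted p = 0.050 by the same exact test, just above the threshold). RPS26, with 51 and 66 reads, had intervals of 65.4 to 87.5% and 62.6 to 83.3%, too wide to show such a difference.

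Within the known reads, most genes used 1 annotated model. RPS4X-201 held 2987 of the 2989 known reads of its gene in replicate 1 and 2340 of 2340 in replicate 2, and RPS12-201 held 99.4% in both libraries. A second model reached 10% of the known reads in at least 1 library in 12 genes, and in both libraries in 8 of them. In RPS23 the second model, RPS23-203, a retained intron transcript, had 1330 and 1686 reads beside 3082 and 3009 of RPS23-201. In FAU, FAU-209 had 411 and 551 reads beside 1138 and 1201 of FAU-207. In RPS6, RPS6-203 had 1232 and 1344 reads beside 3437 and 3356 of RPS6-204. In RPS13, RPS13-203, a retained intron transcript, had 518 and 543 reads beside 1949 and 1960 of RPS13-202. These 4 second models each held 18.3% or more of the known reads of their gene in both libraries. The junctions of all 4 are the 3′ part of those of a longer annotated transcript of their gene. Of the 12 second models, 7 are of this kind. Whether their reads came from the longer transcript was not tested. In RPS15A and RPS2 the known reads were few: RPS15A-203 had 68 and 58 beside 209 and 236 of RPS15A-201, and RPS2-202 had 3 and 8 beside 10 and 21 of RPS2-213.

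The leading known model was not always the one with most exons. RPS7-205, with 6 exons, had 1973 and 2234 reads, and RPS7-201, with 7, had 276 and 163. RPS9-204, with 4 exons, had 2111 and 2130 reads, and RPS9-201, with 5, had 683 and 648. RPS15-210, with 3 exons, had 2124 and 2542 reads, and RPS15-209, with 4, had 418 and 274. In each of these pairs the junctions of the shorter model are the 3′ part of those of a longer annotated transcript of the gene. Such nested models took 19.8% and 24.8% of the members' known reads. Among all annotated genes the nested share was 18.9% and 22.7%, and in the large subunit genes 42.7% and 46.6%. The members' share was 15.8% and 20.2% without RPS29, whose reference holds a rarely read upstream exon, so that its common transcript counts as nested. The nested share, and the share of non-coding types below, were chosen after values had been seen and were given no test.

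The use of the top known model was compared with Fisher's exact test in the 25 members with 2 or more known models of at least 10 reads. The top model's share was lower in replicate 2 in 11 members and higher in 1, against 18.4% and 2.75% of the 1127 genes tested, or 21.1% in either direction. With at least 100 reads in each library, 12 of 24 members were called beside 34.5% of 493 genes. RPSA-201 had 2866 and 2043 reads and RPSA-207, annotated as a processed transcript, had 270 and 767. The share of RPSA-201 was 91.4% and 72.7% (adjusted p = 2.3e-79 by Fisher's exact test). In RPS18, RPS18-230 had 87.2% and 78.8% (adjusted p = 1.2e-45 by the same exact test), while RPS18-236, a retained intron model, had 939 and 1330 reads. The junctions of RPSA-207 and RPS18-236 also occur at the 3′ end of a longer annotated transcript, and the source of their reads was not tested. The member with a higher share was RPS15, where RPS15-210 had 82.7% and 89.8% (adjusted p = 1.6e-12 by Fisher's exact test). RPS15-210 is itself nested in a longer annotated transcript.

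Retained intron and processed transcript models, which the annotation does not class as coding, took 5.04% (4.89 to 5.19%) of the members' known reads in replicate 1 and 8.49% (8.30 to 8.68%) in replicate 2. Over all annotated genes the shares were 5.40% and 8.74%. Of the 29 such models with at least 10 reads, 26 had a higher share in replicate 2, compared with 35 of 69 coding models. Of the 29, 16 were nested at the 3′ end of a longer annotated transcript of the gene, and 15 of these were higher. RPS6-205 had 128 and 522 reads, RPS14-205 had 134 and 431 beside 2182 and 2563 of RPS14-203, and RPS18-235 had 105 and 421. The junctions of these 3 models also occur at the 3′ end of a longer annotated transcript of the gene. How many of the reads held the annotated intron was not tested.

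**Figure D4:**
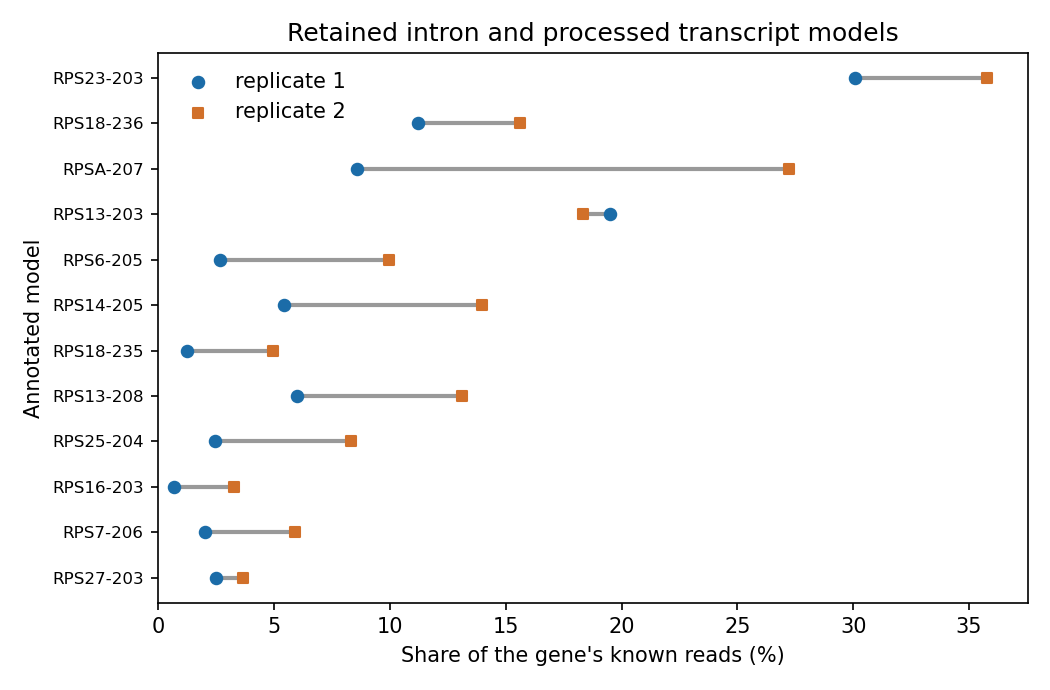
Share of the gene's known reads, in percent, of the 12 retained intron and processed transcript models with most reads in replicate 2, with a circle for replicate 1 and a square for replicate 2. The share is higher in replicate 2 in 11 of the 12, and RPSA-207 has the longest line, from 8.57% to 27.2%.

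RPS24, needed for the maturation of the small subunit's ribosomal RNA, has coding isoforms that differ by a short exon near the end of the reading frame. RPS24-214, which lacks it, had 2033 and 2101 reads, and RPS24-219, which holds it, had 104 and 71. The exon is exon 5 of RPS24-219, 22 bases long, at chr10:78040204-78040225 on the + strand, and its first 3 bases are the annotated stop codon. It is shown in capitals after the last 8 bases of exon 4, beside the same 8 bases and the next 15 of RPS24-214.
RPS24-219: gcaaaaagTGAGCTGGAGATTGGATCACAG
RPS24-214: gcaaaaagccgaaggagtaaagg

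The share of RPS24-214 among the known reads did not pass the test of a difference between the libraries, with 94.6% and 93.8% (adjusted p = 0.60 by Fisher's exact test).

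New combinations of splice sites were rare but some recurred. Of the members' known models with a read, 127 of 158 (80.4%) had a read in both libraries, compared with 48.4% of 818 ISM, 28.7% of 661 NIC and 25.9% of 756 NNC models. In all annotated genes these shares were 57.8%, 34.4%, 15.5% and 10.9%, and depth differs between genes. The NNC model with most support was in RPS18, with 311 and 291 reads, or 3.31% and 2.89% of the gene. The next were in RPS20 with 269 and 311 reads, RPSA with 205 and 169, FAU with 92 and 105, and RPS18 again with 84 and 109. Each has as many exons as its reference. The NIC models with most support were in RPS6 with 161 and 163 reads, RPSA with 103 and 98 and with 111 and 95, RPS23 with 92 and 99, and RPS6 with 88 and 96.

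Processed pseudogenes, intronless copies of these mRNAs elsewhere in the genome, carry reads of their own in the table, and reads of a gene and its copy can be split between them by the mapping. The 99 copies with reads, found by symbol, had 9960 and 13773 reads, or 7.58% and 8.70% of the reads of members and copies together. RPS28P7 (chr11:82689559-82689768, + strand) had 3059 and 3821 reads, while RPS28 itself had 369 and 648. The 210 bases of RPS28P7 were identical to a stretch of RPS28-203, with 0 mismatches. The level of RPS28 is thus uncertain, and so is that of RPS26, whose 11 copies with reads held 78.7% and 78.0% of the reads of gene and copies together. The copies of RPS26 had only 188 and 234 reads, beside 51 and 66 of the gene. With them added, RPS26 would still lie below FAU, which had 1771 and 2080 reads, while RPS28 with its copy would lie above it.

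RPSAP58, 99.6% identical to RPSA-201 over its 888 bases, had 2294 and 2689 reads, and all copies of RPSA together held 32.4% and 31.9%. RPS7P1, 99.2% identical to RPS7-201, had 1188 and 1482 reads, and the copies of RPS7 held 32.7% and 33.4%. The copies of RPS27A held 18.7% and 21.5%, those of RPS13 12.3% and 14.0%, and those of RPS3A 9.06% and 13.9%. In 16 genes the copies held under 1% in both libraries, counting RPS16, RPS9 and RPS25, which had no copy with a read. With the reads of the copies added to their gene, 15 members were again higher in replicate 2 and 0 lower, against 4.94% of 10594 genes, but the log2 ratio of RPS28 went from 0.66 to 0.23. Whether reads of the copies come from the genes themselves was not tested.

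**Figure D5:**
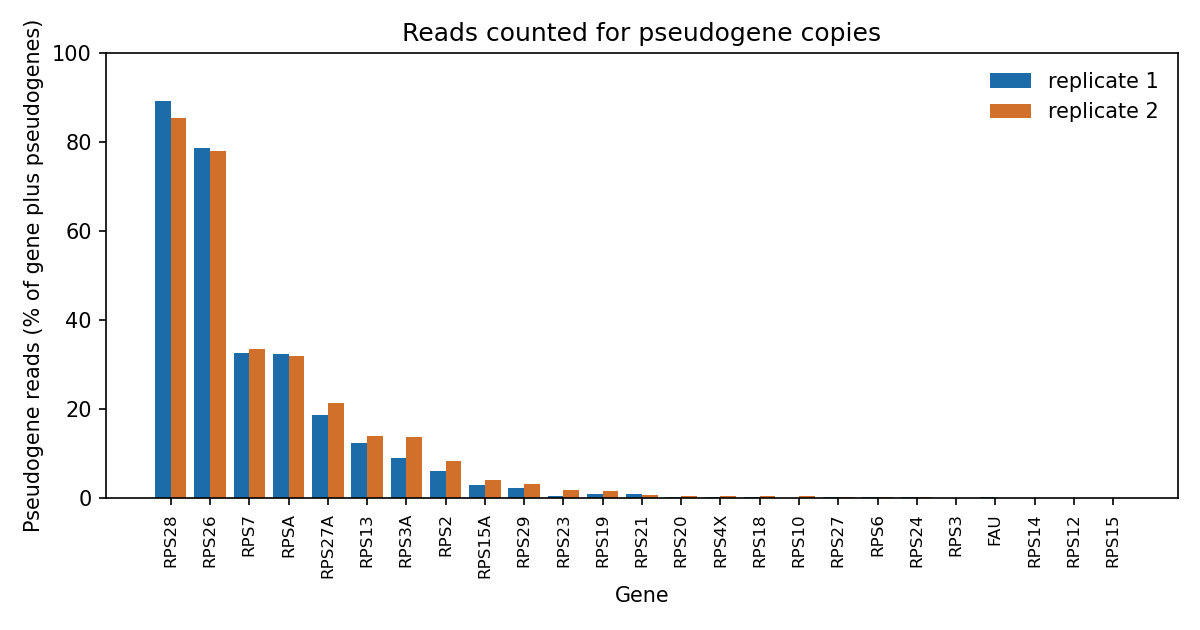
Reads counted for pseudogene copies as a percent of the reads of each gene and its copies, with a blue bar for replicate 1 and an orange bar for replicate 2, for the 25 genes with a copy that had a read. RPS28 and RPS26 stand at 78.0% or more and RPS7 and RPSA between 31.9% and 33.4%.

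For comparison, 44 genes of small subunit assembly and of mRNA control on the ribosome took 0.248% and 0.221% of the reads. Of these, 1 was higher in replicate 2 and 2 lower by the exact binomial test, against 2.72% and 2.33% of all genes tested. The higher gene, USP10, a deubiquitinase of the small subunit, had 27 and 72 reads. The lower genes were RRP7A, with 165 and 115, and EMG1, an rRNA methyltransferase, with 175 and 133. Of the 41 with enough reads, 8 had a lower known share in replicate 2 and 0 a higher one. Among all genes tested, 26.9% were lower and 0.268% higher. BYSL, a late assembly factor, was among the 8 with 76.2% and 43.9%. LARP1, which binds the start of TOP mRNAs, had 67 and 111 reads (adjusted p = 0.13 by the exact binomial test). The 47 large subunit genes took 13.1% and 13.2% of the reads. Of them, 9 were higher and 8 lower in replicate 2, against the same 2.72% and 2.33% of all genes tested. That split was not tested against that of the members.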

How the data were processed

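Both libraries of GM12878 were read by direct RNA sequencing. Raw read counts, not normalized, were deposited by the authors as 1 table per transcript model and replicate, with other properties of the model (exon number and bases), per the file headers. TALON is named with the table; minimap2 and hg38 are listed in the submitters' processing notes without role or version, and read filters and annotation release are not given in the sources used here. All 158 known models of the members matched GENCODE 29 by identifier, exon number and length, and positions are from it.

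Gene counts are sums over models. Tests were a two-sided exact binomial test (at least 10 reads), and Fisher's exact tests of the known share and of the top known model (at least 20 reads in each library; models with at least 10), with SciPy 1.17.1 and Benjamini-Hochberg adjustment over all genes at 0.05. With 1 group, edgeR 4.0.16 and DESeq2 1.42.0 were used for scaling factors only. Log2 ratios used a pseudocount of 0.5 reads. Members, lists and alternatives were chosen with earlier results of these data known. All 28 members are named; of known models, the top and second where the second has at least 10% of known reads in either library, and of ISM, NIC and NNC models, the 5 with the highest smaller count. Other models and pseudogenes were named after their values were seen.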

Additional observations from a re-analysis of the deposited data

How the results depend on the processing

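The 15 members with a different read count became 14 with TMM factors, 14 with no filter on low counts, 15 with DESeq2 size factors, 15 with at least 100 reads (14.4% of all genes called, against 5.05%), 20 without genomic models (8.26%) and 23 with known models only (18.8%). Of the 15, 11 were among those 23, RPS15A, RPS27A, RPS3 and RPSA were not, and 12 others were. Chosen after seeing the data, leaving mitochondrially encoded genes out of the totals gave 14, of which 13 were higher and RPS18 was lower. With known models only, log2 ratios changed sign to 0.18 in RPS25, 0.15 in RPS27, 0.23 in RPS23 and 0.16 in RPS18, and to -0.026 in RPSA and -0.22 in RPS4X. RPS10 and RPS24 moved to -0.0091 and -0.0050 with TMM factors and to -0.0123 and -0.0082 without mitochondrially encoded genes. RPS23 moved to 0.0048 with DESeq2 size factors, 0.072 without genomic models and 0.0131 with pseudogene reads added, and RPS18 to 0.0191 without genomic models. The members' share of the reads, 9.25% as a mean, was 11.3% with known models only, 10.6% without genomic models and 10.1% with pseudogenes. Their known share, 61.6% as a mean, was 75.1% as a median over genes and 67.9% without RPS2, the last chosen after seeing the data. The median of the members' mean CPM was 3758 with known models only and 3491 per kilobase. The 12 members with a different top model became 26 when ISM, NIC and NNC models were included, while the share of all genes called went from 21.1% to 43.9%; the cause was not tested. The 19 members with a different known share were 19 or 20 under each alternative run, with up to 61.2% of all genes called. Leaving out 1 library left single values with no test: 8.93 to 9.57% for the share of reads and 58.1 to 65.1% for the known share. No paired analysis was possible because both libraries belong to 1 group. Depth limits RPS26 most.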
